A study of Mus musculus with 4 samples.

Results

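CD4 T cells of mouse YUMMER1.7 melanomas were described by single-cell RNA-Seq, with the cells that carried Foxp3 RNA kept apart from those that did not. The cells were selected on their own RNA, so the genes used for the choice are described here and were not tested. A CD4 T cell had at least 2 UMIs (unique molecular identifiers, each a counted RNA molecule) of Cd3d, Cd3e and Cd3g together, no UMI of Cd8a or Cd8b1, at least 1 UMI of Cd4 or Foxp3 and at most 5 UMIs of Lyz2. Of 6625 kept cells, 101 met this rule, 48 with and 53 without a Foxp3 UMI, and 510 T cells with a Cd8a or Cd8b1 UMI served as the comparison. Male wild-type C57BL/6J mice aged 7 to 8 weeks carried subcutaneous tumors of YUMMER1.7, a mouse melanoma line, and were treated from day 7 with isotype IgG1, with anti–PD-1 antibody RMP1-14 at 10 mg/kg, with the anti-MIF antibody IIID.9 at 20 mg/kg, or with both (anti–PD-1/anti-MIF). The long treatment cohort had 4 doses over 2 weeks with harvest on day 21, and the short treatment cohort 2 doses over 1 week with harvest on day 14. Sorted CD45+ and CD45- cells were put back together at 80% to 20%, so shares of all cells reflect this mixture. The arms of a cohort were tagged and pooled into 1 library, the mice of an arm cannot be told apart, and cohort, library and time coincide.

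CD4 T cells recognize antigen on MHC class II and act largely by helping other cells, through CD40 ligand and cytokines. Regulatory T cells are CD4 T cells that carry the transcription factor Foxp3, are kept by interleukin-2 through the high-affinity receptor chain CD25 (Il2ra), and restrain other T cells. In tumors they are known for high CTLA-4, OX40 (Tnfrsf4) and GITR (Tnfrsf18) and for the Ikaros family factor Helios (Ikzf2).

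Every statement on an arm rests on the hashtag that the cell carried. The deposited reference held 5 hashtags of 15 bases, of which any pair differed at 8 or more positions. They are shown because they are what tells the arms apart within a library.
Isotype: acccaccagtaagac
anti-PD1: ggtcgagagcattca
anti-MIF: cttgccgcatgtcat
anti-PD1-MIF: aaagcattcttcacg
anti-PD1-MIF-DDT: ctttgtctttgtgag
The labels of the samples name the first 4 arms. The 5th hashtag has no partner arm, and its cells were left out of every treatment comparison but kept where classes of cells were compared within an arm. A cell was kept when its top hashtag had at least 3 times the UMIs of the next, and in the CD4 T cells this ratio had a median of 8.93 in the long and 20.1 in the short.

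There were 2516 barcodes and 23702910 gene UMIs in the long library and 4987 barcodes and 31799441 gene UMIs in the short one. After the limits on genes (200 to 5000), mitochondrial UMIs (at most 5%) and hashtags, 2053 and 4572 cells remained. In the 101 CD4 T cells the UMIs per cell ran from 1297 to 20105 in the long and from 968 to 16550 in the short cohort. Median UMIs per cell were 4019 and 4492 in Foxp3-positive cells (long and short), 3676 and 3270.5 in Foxp3-negative CD4 T cells and 5769 and 4123.5 in CD8 T cells. Where a share of cells is said to be after thinning, every cell was thinned to 2000 UMIs, which left 45 Foxp3-positive, 45 Foxp3-negative and 463 CD8 T cells. Other counts and shares of cells are from cells at their full and unequal depth. The libraries shared 20 cell barcodes, none of them of a CD4 T cell.

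Foxp3 (chrX:7573644-7595245, plus strand, GRCm38) gave 172 UMIs in the 48 positive cells, of which 10 cells had 1 UMI and 38 had at least 2. The highest number in a cell was 13 in the long and 8 in the short cohort. Cd4 (chr6:124864692-124888221, minus strand), the MHC class II coreceptor, was seen in 27 of the 48 cells and was the entry gene of all 53 Foxp3-negative cells, of which 25 had 1 Cd4 UMI. At the edges of the rule, 4 CD4 T cells had exactly 2 Cd3 UMIs, while 6 cells were left out with 1 Cd3 UMI, 5 with 1 Cd8 UMI and 1 with 6 or 7 Lyz2 UMIs. No Lyz2 UMI was seen in 93 of the 101 cells. As a measure of free RNA, Foxp3 was seen in 0.828% and 0.262% of 966 and 2675 Lyz2-rich myeloid cells without Cd3 UMIs (median 11218 and 6900 UMIs), and Cd4 in 0.414% and 0.112%. A Foxp3-negative cell is 1 in which no UMI was caught, not 1 shown to lack the RNA.

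CD4 T cells made up 2.29% of kept cells in the long cohort (47 cells, exact 95% interval 1.69% to 3.03%) and 1.18% in the short cohort (54 cells, 0.888% to 1.54%). These intervals cover counting error only. In the order of the hashtags above, Foxp3-positive cells numbered 1, 2, 19, 0 and 4 in the long cohort. In the short cohort they numbered 4, 9, 3, 4 and 2. Foxp3-negative CD4 T cells numbered 2, 6, 7, 5 and 1 in the long cohort, against 11, 11, 5, 4 and 1 in the short cohort. The long anti-MIF arm thus held 19 of the 48 Foxp3-positive cells, where they were 2.12% of 895 kept cells (1.28% to 3.30%) and 73.1% of CD4 T cells (52.2% to 88.4%). In the long anti–PD-1/anti-MIF arm 0 of 288 kept cells were Foxp3-positive, which allows a share of up to 1.04% by a floor of 3 cells and of up to 1.27% by the exact 95% interval.

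**Figure D1:**
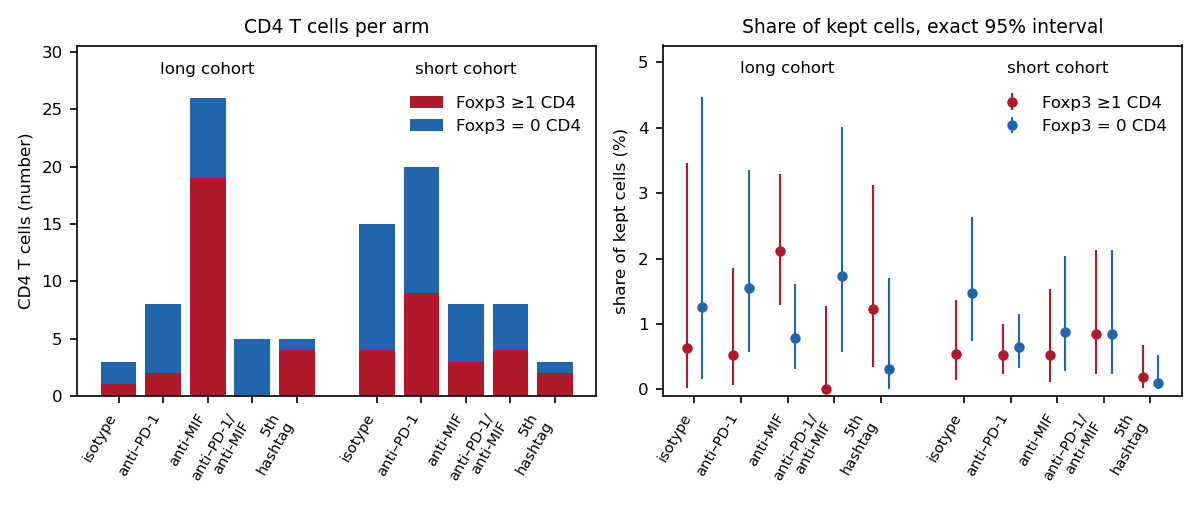
Left, number of Foxp3-positive (red) and Foxp3-negative (blue) CD4 T cells in each hashtagged arm of the long and short cohorts. Right, the same classes as a share of kept cells in percent, with exact 95% intervals as bars; the 19 Foxp3-positive cells of the long anti-MIF arm stand above the other arms, and most intervals overlap.

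The effect of anti-MIF on these shares was compared over 4 pairs of arms, 2 in each cohort: anti-MIF was set against isotype, and the combination against anti–PD-1. The share of CD4 T cells among kept cells was 2.91% with anti-MIF against 1.89% with isotype, and 1.74% with the combination against 2.07% with anti–PD-1, in the long cohort. The short cohort gave 1.41% against 2.02% and 1.68% against 1.17%. The mean difference was 0.148 percentage points (SD 0.751, n = 4 pairs, higher in 2, exact two-sided sign-flip permutation p = 0.75). Foxp3-positive cells as a share of CD4 T cells differed by 39.7 and -25 percentage points in the long and by 10.8 and 5 in the short cohort, with a mean of 7.64 (SD 26.5, higher in 3 of 4 pairs, exact permutation p = 0.625). With 4 pairs the smallest p this test can give is 0.125. The difference within the pairs was smaller than their spread, and its direction changed when the long anti-MIF pair was left out (mean -3.06).

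Genes were compared between the classes within an arm, from UMIs summed per arm and class where the class had at least 5 cells. Only 2 sums of Foxp3-positive cells reached that number (long anti-MIF and short anti–PD-1), beside 6 of Foxp3-negative CD4 T cells and 10 of CD8 T cells. The quasi-likelihood test of edgeR with the arm as a block left 6 residual degrees of freedom, and p-values were adjusted by Benjamini-Hochberg over 3010 genes. They measure the spread between hashtagged arms, not between mice. The 2 Foxp3-positive sums come from arms that differ in both cohort and treatment. In the comparisons of Foxp3-positive cells the spread is therefore taken mostly from the sums of the other classes. Levels are given as CPM (the UMIs of a gene scaled to the same total of 1000000 UMIs in every sum) for all arms, also those with 1 to 4 cells.

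Foxp3-positive cells had more RNA of the interleukin-2 receptor chain Il2ra, of Helios, OX40, CTLA-4 and amphiregulin than Foxp3-negative CD4 T cells, and less of PD-1 (Pdcd1), of the chemokine receptor Cxcr6 and of the NK receptor chains Klrd1 and Klrc1. In all, 23 of 3010 genes were higher (0.764%) and 30 lower (0.997%), or 1.76% in either direction, at an adjusted p under 0.05. Of the regulatory T cell list, 24 of 30 genes could be tested, 7 were higher (Il2ra, Ikzf2, Ctla4, Tnfrsf4, Areg, Capg and Tnfrsf1b) and 0 lower, with a median log2 fold change of 1.31 against 0.01 over all genes tested. Leaving out either Foxp3-positive sum leaves 1, which is then assumed to vary like the sums of the other classes. Without the long anti-MIF arm 4 members were higher, of which Il2ra, Ikzf2 and Tnfrsf4 were among the 7. Without the short anti–PD-1 arm 3 were higher (Areg, Ctla4 and Il2ra), and with cells thinned to 2000 UMIs none of 15 testable members passed, nor any of 990 genes in edgeR (109 had an unadjusted p under 0.05). All 28 genes that DESeq2 called were among the 53.

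Il2ra (chr2:11642807-11693193), the interleukin-2 receptor alpha chain, gave 132 and 92 UMIs in the long and short Foxp3-positive cells, 15 and 15 in Foxp3-negative CD4 T cells and 73 and 85 in the far more numerous CD8 T cells. Over 9 arms its level ran from 0 to 1250 CPM (median 786) in Foxp3-positive cells, and over 10 arms from 0 to 452 CPM (median 97.0) in Foxp3-negative cells. It was higher in Foxp3-positive cells in 8 of 9 arms, though the ranges overlapped. The pooled level was 5.48 times that of Foxp3-negative cells, and the fitted log2 fold change was 2.78 (SE 0.478, edgeR adjusted p = 0.000829). After thinning, Il2ra was seen in 68.9% of Foxp3-positive, 22.2% of Foxp3-negative and 8.86% of CD8 T cells, against 0.724% of Lyz2-rich cells.

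Ikzf2 (chr1:69531214-69687245), which encodes Helios, was seen in 47 of 48 Foxp3-positive cells and in 13 of 53 Foxp3-negative cells before thinning. Its level ran from 764 to 2252 CPM (median 1292) in the 9 Foxp3-positive arms, and from 0 to 842 CPM (median 103) in the 10 Foxp3-negative arms. All 9 arms with both classes were higher in Foxp3-positive cells, and only the highest Foxp3-negative arm reached into their range. The log2 fold change was 2.31 (SE 0.488, edgeR adjusted p = 0.00731). Tnfrsf4 (chr4:156013843-156016612), the costimulatory receptor OX40, ran from 246 to 2586 CPM (median 1603) and from 0 to 2183 CPM (median 713), was higher in 8 of 9 arms, and had a log2 fold change of 1.93 (SE 0.374, adjusted p = 0.00313). The rule did not use Il2ra, Ikzf2 and Tnfrsf4, but these markers were chosen with earlier results of these data known. They describe the cells and give no independent support for the label of regulatory T cells. At full and unequal depth, 34 of 48 cells (70.8%) had a UMI of all 3. This compares with 8 of 53 Foxp3-negative cells (15.1%) and 23 of 510 CD8 T cells (4.51%).

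**Figure D2:**
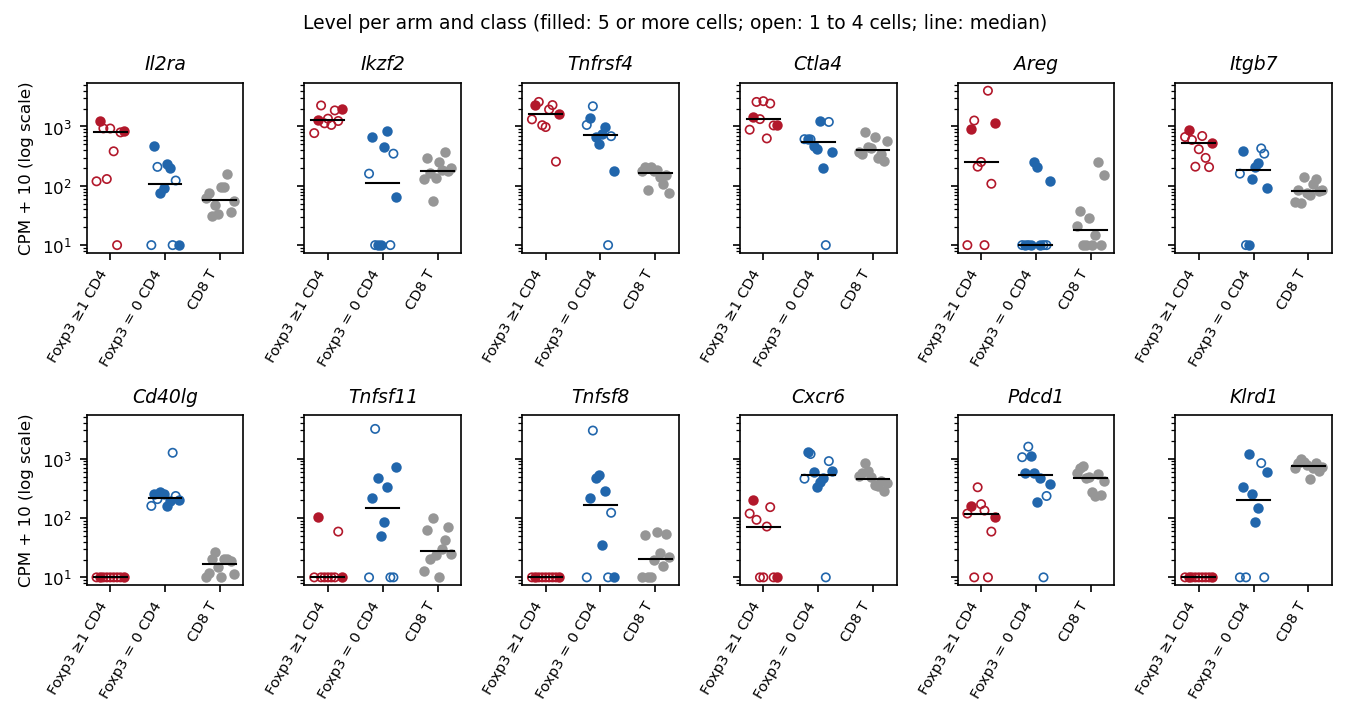
Level of 12 genes in CPM + 10 on a log scale, 1 point per hashtagged arm and cohort, for Foxp3-positive CD4 (red), Foxp3-negative CD4 (blue) and CD8 T cells (grey); filled points are arms with at least 5 cells of the class, open points 1 to 4 cells, and lines medians. Ikzf2 and Tnfrsf4 of Foxp3-positive cells lie above all CD8 arms, and Cd40lg was seen in every Foxp3-negative arm and in no Foxp3-positive arm.

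The checkpoint receptor Ctla4 ran from 619 to 2664 CPM (median 1321) in Foxp3-positive arms and from 0 to 1249 CPM (median 529) in Foxp3-negative arms. The level was higher in 8 of 9 arms, and the log2 fold change was 1.47 (SE 0.367, adjusted p = 0.0230). This call was lost without the long anti-MIF arm. Areg encodes amphiregulin, a growth factor known from regulatory T cells in tissue repair. It gave 104 and 88 UMIs in Foxp3-positive cells (25 cells) and 6 and 12 in Foxp3-negative cells (4 cells), for a log2 fold change of 2.71 (SE 0.637, adjusted p = 0.0151) and a higher level in 6 of 9 arms. Areg was absent from 2 Foxp3-positive arms and from 7 of the 10 Foxp3-negative arms. Its call too was lost without the long anti-MIF arm.

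Other genes higher in Foxp3-positive cells were Tnfrsf1b, the TNF receptor TNFR2 (log2 fold change 1.93, adjusted p = 0.0207), Itgb7, an integrin chain of gut and epithelial homing (2.12, adjusted p = 0.0123), and Cd27, a costimulatory receptor (2.33, adjusted p = 0.0230). All 3 were higher in at least 7 of the 9 arms, and all 3 calls were lost without the long anti-MIF arm. Itgb7 and Tnfrsf1b were also common in Lyz2-rich cells (21.6% and 33.0% after thinning), whereas Il2ra, Ikzf2 and Tnfrsf4 were seen in under 1% of them. Ddit4, a stress-induced inhibitor of mTOR signalling (2.38, adjusted p = 0.00264), Hopx, a small homeodomain protein (1.55, adjusted p = 0.0230), and Capg, an actin-capping protein (1.45, adjusted p = 0.0333), were higher as well. Ddit4 was called in 26 of 29, Hopx in 23 of 30 and Capg in 19 of 30 alternatives. The call of Capg too was lost without the long anti-MIF arm. Capg was seen in 1794 of 3591 thinned Lyz2-rich cells and Hopx in 727 (20.2%). The chemokine Ccl3 was called higher (5.32, adjusted p = 0.00775), though in 4 arms it was higher and in 2 lower, and its fitted value was -3.21 without the long anti-MIF arm. Gm20628, Frmd5 and Hist1h2ae were called higher but were seen in only 6, 13 and 7 Foxp3-positive cells, and Hist1h2ae belongs to a family of near-identical histone genes.

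Other members of the regulatory T cell list did not pass this test. Klrg1, an inhibitory receptor of terminally differentiated cells, was seen in 44.4% of thinned Foxp3-positive and 8.89% of Foxp3-negative cells, and was higher in 8 arms and lower in none (adjusted p = 0.119). Itgae, the alpha chain of the E-cadherin receptor CD103, gave 52 UMIs in 23 Foxp3-positive cells and 4 UMIs in 4 Foxp3-negative cells (adjusted p = 0.0611). At least 1 of Areg, Klrg1 and Itgae was seen in 43 of 48 Foxp3-positive cells (89.6%), 13 of 53 Foxp3-negative cells (24.5%) and 62 of 510 CD8 T cells (12.2%). Il10, an inhibitory cytokine, was seen in 8 and 6 cells of the CD4 classes, and its difference had a log2 fold change of 0.71 (SE 1.53, adjusted p = 0.947). Nrp1, the semaphorin receptor neuropilin-1, was seen in 7 Foxp3-positive and 12 Foxp3-negative cells (adjusted p = 0.480).

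Among the genes lower in Foxp3-positive cells, Cxcr6, the receptor for Cxcl16, ran from 0 to 192 CPM (median 61.9) over the 9 Foxp3-positive arms. In the 10 Foxp3-negative arms it ran from 0 to 1275 CPM (median 531) and in the 10 CD8 arms from 274 to 839 CPM (median 448). It was lower in 8 of 9 arms (log2 fold change -2.71, SE 0.516, edgeR adjusted p = 0.00264) and lower than in every CD8 arm. How many of all tested genes lay apart from CD8 T cells in this way is not given. Pdcd1, the target of the anti–PD-1 antibody, ran from 0 to 320 CPM (median 109) in Foxp3-positive cells, from 0 to 1588 CPM (median 518) in Foxp3-negative cells and from 224 to 756 CPM (median 471) in CD8 T cells. It was lower in 8 arms and higher in none (log2 fold change -2.17, SE 0.477, adjusted p = 0.0100), a call that was lost without either arm that held 5 or more Foxp3-positive cells.

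Klrd1, the CD94 chain of inhibitory and activating NKG2 receptors, gave 0 UMIs in 48 Foxp3-positive cells and 61 UMIs in 16 of 53 Foxp3-negative cells. Against a floor of 3 UMIs over the Foxp3-positive cells it was at least 27.7-fold higher in Foxp3-negative cells (edgeR adjusted p = 0.000158), and this call was lost only when cells were thinned to 2000 UMIs. Its partner Klrc1 gave 2 and 36 UMIs, a ratio of 24.5 (adjusted p = 0.00377). A UMI of Klrd1, Klrc1 or the NKG2D gene Klrk1 was seen in 2 of 48 Foxp3-positive cells (4.17%), 20 of 53 Foxp3-negative cells (37.7%) and 470 of 510 CD8 T cells (92.2%). Of those 20 Foxp3-negative cells 11 also had Cd40lg.

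The costimulatory receptor Cd226 gave 0 UMIs in Foxp3-positive cells and 28 in 13 Foxp3-negative cells, at least 12.7-fold higher there (adjusted p = 0.0207). The chemokine Ccl1 gave 0 UMIs against 33, at least 15.0-fold higher (adjusted p = 0.0267). Bcl2, which protects from apoptosis, gave 4 UMIs in 1 Foxp3-positive cell and 25 UMIs in 13 Foxp3-negative cells, and Fasl, a death ligand, gave 1 and 19 UMIs. Itgb1, the beta-1 integrin chain (log2 fold change -3.77, SE 0.762, adjusted p = 0.00470), and Ifitm2, an interferon-induced membrane protein (-4.15, SE 0.695, adjusted p = 0.000776), were also lower. Ifitm2 was named after its values were seen. It ran from 0 to 108 CPM over the Foxp3-positive arms and from 122 to 6352 CPM over the Foxp3-negative arms. These ranges did not overlap, but most of the Foxp3-positive and some of the Foxp3-negative arms held fewer than 5 cells. The share of all tested genes without overlap is not given, so this gap has no background to be weighed against. The heat shock genes Hspa1a and Hspa1b were lower (adjusted p = 0.0113 and 0.0189), but they are near-identical copies whose reads may be split between them, and 121 of the 152 Hspa1b UMIs of Foxp3-negative cells came from the short cohort.

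**Figure D3:**
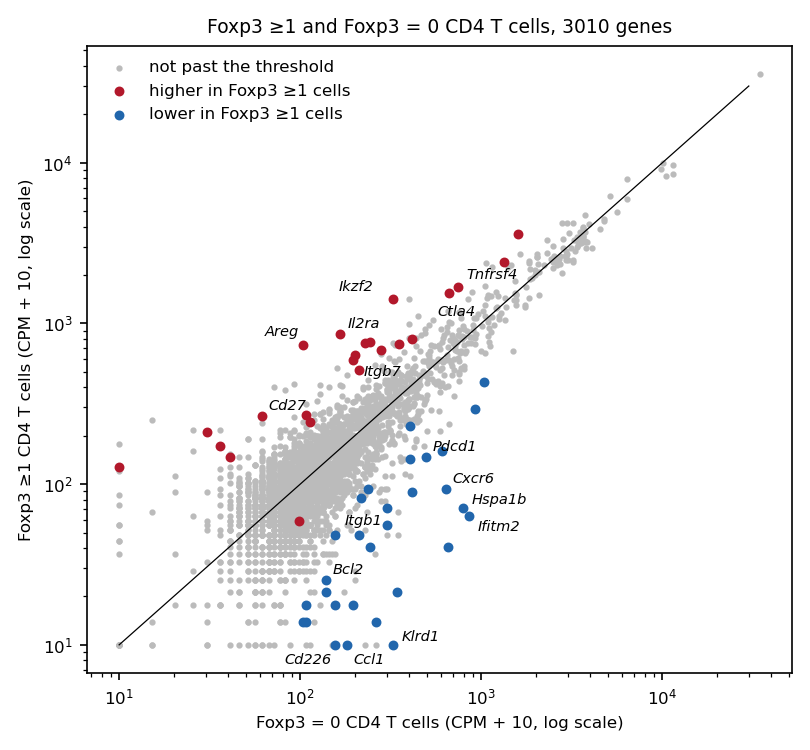
Pooled level of 3010 tested genes in Foxp3-negative (x axis) and Foxp3-positive (y axis) CD4 T cells, in CPM + 10 on log scales; the line marks equal levels, red points are the 23 higher and blue points the 30 lower genes at an edgeR adjusted p under 0.05. Il2ra, Ikzf2 and Areg stand above the line, and Klrd1, Cd226 and Ccl1 lie on the lower edge, with 0 UMIs in Foxp3-positive cells; the red point below the line is Trbv16, a receptor V gene that was higher within arms but not in the pooled cells.

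CD40 ligand RNA was seen in a part of the other class. Cd40lg (chrX:57212143-57224042), through which helper T cells license dendritic cells and B cells, was seen in 24 of 53 Foxp3-negative cells and in 0 of 48 Foxp3-positive cells. It gave 18 and 24 UMIs in the long and short Foxp3-negative cells, 0 in Foxp3-positive cells and 14 in all 510 CD8 T cells. Over the 10 Foxp3-negative arms its level ran from 150 to 1251 CPM (median 212), over the CD8 arms from 0 to 16.5 CPM, and it was 0 in all 9 Foxp3-positive arms, so Foxp3-negative cells overlapped with neither class. The level was at least 19.1-fold higher than in Foxp3-positive cells, a difference that did not pass the test over all genes (edgeR adjusted p = 0.0716). Cd40lg is a gene with few UMIs per cell, and 0 of 48 cells allows a share with a UMI of up to 6.25%.

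Tcf7, the factor TCF-1 of naive and memory-like T cells, was seen in 15 Foxp3-negative and 0 Foxp3-positive cells (27 and 0 UMIs), and Tnfsf8, the CD30 ligand, in 16 and 0 cells (49 and 0 UMIs). Neither passed the test between the CD4 classes (adjusted p = 0.167 and 0.0910). Tnfsf11, the ligand RANKL, gave 65 UMIs in 14 Foxp3-negative and 10 UMIs in 5 Foxp3-positive cells (adjusted p = 0.0787). A UMI of Cd40lg or Tcf7 was seen in 31 of 53 Foxp3-negative cells (58.5%) and in 54 of 510 CD8 T cells (10.6%). Ifng, the Th1 cytokine, was seen in 13 Foxp3-negative and 3 Foxp3-positive cells (adjusted p = 0.133), and Il2, the growth factor on which regulatory T cells depend, in 4 and 0 cells, too few to test.

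**Figure D4:**
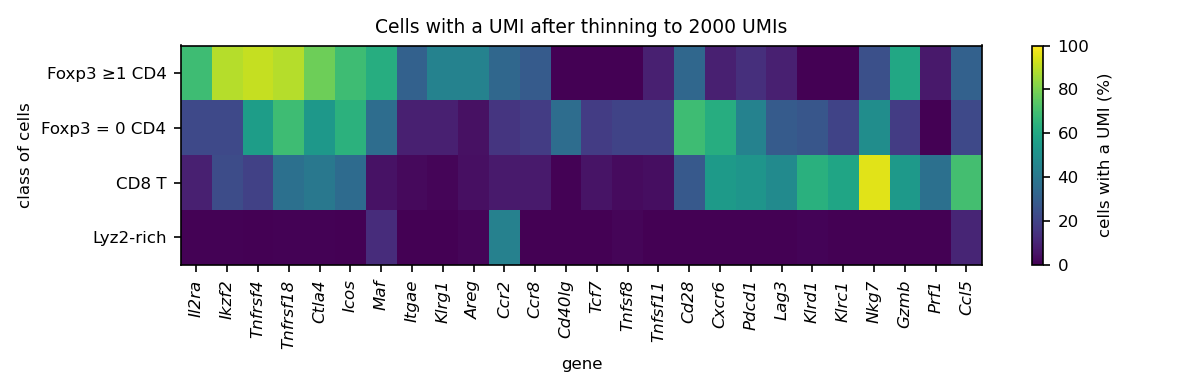
Share of cells with a UMI, in percent by color, for 26 genes (columns) in Foxp3-positive CD4, Foxp3-negative CD4, CD8 T and Lyz2-rich cells (rows) after each cell was thinned to 2000 UMIs. Ikzf2 and Tnfrsf4 lead in Foxp3-positive cells (88.9% and 91.1%), Cd40lg is seen in 35.6% of Foxp3-negative cells and Nkg7 in 95.5% of CD8 T cells; Maf, Ccr2 and Ccl5 are also seen in Lyz2-rich cells.

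Against CD8 T cells, Foxp3-negative CD4 T cells had less RNA of cytotoxic and cell cycle genes and more of costimulatory ligands and receptors. Of 3010 genes 65 were higher (2.16%) and 153 lower (5.08%), 7.24% together. The balance depended on the scaling: with library size alone in place of TMM, 122 were higher and 65 lower, since the median of all genes moved from -0.06 to 0.23 on the log2 scale, while all 218 genes kept their sign. Of the lower genes 35 were among the 82 ribosomal protein genes tested, of which 3 were called with library size alone and 17 in DESeq2. Of the cytotoxic list, 13 of 15 tested genes were lower and 0 higher, with a median log2 fold change of -2.57. This list gave 10 lower genes in DESeq2, 11 to 13 when any arm was left out and 4 of 11 with thinned cells (Ccl4, Gzmf, Nkg7 and Prf1).

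Nkg7, a protein of cytotoxic granules, ran from 0 to 2704 CPM (median 586) in the 10 Foxp3-negative arms and from 1875 to 3898 CPM (median 3058) in the 10 CD8 arms. All 10 arms were lower in CD4 cells, with a log2 fold change of -2.57 (SE 0.246, edgeR adjusted p = 6.71e-10). The chemokine Ccl5 was lower in all 10 arms, from 0 to 724 CPM against 760 to 6194 CPM (log2 fold change -3.22, SE 0.399, edgeR adjusted p = 3.47e-07). The 2 ranges did not overlap, but the share of all tested genes without overlap is not given. Perforin (Prf1) gave 0 UMIs in 53 Foxp3-negative cells and was seen in 280 of 510 CD8 T cells, at least 25.7-fold higher in the latter (adjusted p = 4.08e-08). Granzyme F (Gzmf) also gave 0 UMIs in both CD4 classes and 1594 in CD8 T cells, though in only 66 cells. Granzyme B (Gzmb) was lower by a smaller margin (log2 fold change -1.75, adjusted p = 0.00785), and this call was lost without the long anti–PD-1 arm and without the long combination arm.

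Of 13 tested costimulation genes 8 were higher in Foxp3-negative CD4 than in CD8 T cells and 0 lower, beside 2.16% higher and 5.08% lower of all genes. When any arm was left out 6 to 8 were higher. With thinned cells 2 of 10 were higher (Cd5 and Tnfrsf4), where 14 of all 990 genes were called in either direction. Cd40lg was 44.7 times as high in the pooled cells (log2 fold change 5.01, SE 0.752, edgeR adjusted p = 1.48e-05). The TNF family ligands Tnfsf11 and Tnfsf8 had log2 fold changes of 3.13 and 3.08 (adjusted p = 9.50e-05 and 0.00940). Cd5, a brake on receptor signalling (2.00, adjusted p = 9.82e-06), Tnfrsf4 (1.86, adjusted p = 9.82e-06) and Tnfrsf18 (1.10, adjusted p = 0.00172) were higher too, as was Cd28, the main costimulatory receptor (1.10, adjusted p = 0.0134). Cd28 was higher in all 10 arms, from 234 to 834 CPM against 110 to 277 CPM. Without the long anti-MIF arm the calls of Cd28 and Icos were lost.

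Of 11 tested lineage factors 2 were higher and 1 lower in Foxp3-negative CD4 than in CD8 T cells. Runx3, a factor of the CD8 lineage, was lower in Foxp3-negative CD4 T cells in 9 of 10 arms (log2 fold change -1.94, SE 0.407, adjusted p = 0.00164). Gata3 and Runx1 were higher (1.82 and 1.40, adjusted p = 0.0249 and 0.00172). The remaining 8 of 11 tested lineage factors, Zbtb7b and Tbx21 among them, did not pass the test. Maf, a factor of interleukin-10-producing and follicular helper cells from the list of Th2, Th17 and follicular genes, was higher (2.32, adjusted p = 0.000592). Of all genes tested 2.16% were higher and 5.08% lower. Of 10 tested Th1 genes 2 were lower (Ifng and Ccl5) and 0 higher. Of 13 tested naive and memory genes 1 was higher, Klf2, which keeps T cells circulating (2.00, adjusted p = 0.000778), and 1 lower, the lymph node homing receptor Ccr7 (-2.21, adjusted p = 0.0498). The call of Ccr7 was made in only 9 of 26 alternatives, and it was seen in 3 of 53 Foxp3-negative cells.

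Of 11 tested cell cycle genes 8 were lower in Foxp3-negative CD4 than in CD8 T cells, beside 5.08% of all genes, Pclaf, Birc5, Stmn1 and Tuba1b among them, with 5 to 9 lower when any arm was left out and 0 of 3 with thinned cells. Mki67, the Ki-67 antigen of dividing cells, was seen in 4 Foxp3-negative, 11 Foxp3-positive and 96 CD8 T cells. Its log2 fold change was -2.38 in Foxp3-negative against CD8 cells (SE 0.653, adjusted p = 0.0178) and 0.04 in Foxp3-positive against CD8 cells (SE 0.582, adjusted p = 0.989). In Foxp3-positive against CD8 T cells 8 of the 11 cell cycle genes were fitted lower. Only Pclaf was called lower (log2 fold change -3.15, edgeR adjusted p = 0.0135), beside 3.46% of all genes. Between the CD4 classes no cell cycle gene passed the test, beside 1.76% of all genes. Of the fitted values 10 of 11 were above 0, against 1517 of 3010 over all genes tested, a count of signs that was not tested. Of the 55 Mki67 UMIs of Foxp3-positive cells 49 came from the short cohort.

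Foxp3-positive cells against the same CD8 T cells gave 85 higher (2.82%) and 104 lower genes (3.46%), 6.28% together, or 113 and 84 with library size alone, where the median of all genes moved from -0.06 to 0.12. These values share the CD8 sums with the comparison before. In that comparison, of Foxp3-negative cells, 5 of 24 tested genes of the regulatory T cell list were higher and 0 lower. They were Tnfrsf4, Tnfrsf18, Icos, Klrg1 and Izumo1r (median of the list 0.84), beside 2.16% of all genes higher. In Foxp3-positive cells 15 of the 24 tested genes were higher and 0 lower (median log2 fold change 2.05, all genes -0.06), and 10 of 15 with thinned cells. Without the long anti-MIF arm 6 members were higher, namely Areg, Ikzf2, Il2ra, Izumo1r, Tnfrsf18 and Tnfrsf4. In all, 53 genes in place of 189 were called without that arm, from 1 remaining Foxp3-positive sum.

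Il2ra (log2 fold change 3.96, SE 0.424, edgeR adjusted p = 1.27e-08), Tnfrsf4 (3.78, adjusted p = 1.68e-09), Ikzf2 (2.71, adjusted p = 2.55e-05) and Tnfrsf18 (2.20, adjusted p = 4.96e-06) were higher in Foxp3-positive than in CD8 T cells. Tnfrsf4 and Tnfrsf18 were called in 30 of 30 alternatives, Ikzf2 in 29 of 30 (not in the long cohort alone) and Il2ra in the 29 in which it was fitted. The arms of the classes did not overlap in Ikzf2, Tnfrsf4, Tnfrsf18, Itgb7, Maf and Ass1. The share of all 3010 tested genes without such overlap is not given, so this list has no background to be weighed against. Most of the Foxp3-positive arms held fewer than 5 cells. Maf ran from 344 to 1091 CPM in the Foxp3-positive arms and from 5.38 to 73.5 CPM in the CD8 arms (log2 fold change 3.48, adjusted p = 1.55e-06). Izumo1r, the folate receptor 4 of regulatory T cells, gave 83 UMIs in 23 Foxp3-positive cells and 37 UMIs in 21 CD8 T cells (5.39, adjusted p = 9.04e-07). Ass1, an enzyme of arginine synthesis, was 29.6 times as high in the pooled Foxp3-positive cells (4.91, adjusted p = 8.45e-06).

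Klrg1 (log2 fold change 4.71, adjusted p = 5.82e-06), Areg (4.01, adjusted p = 2.79e-07), Itgae (3.30, adjusted p = 0.00996) and Ebi3, a subunit of interleukin-35 (4.35, adjusted p = 0.00745), were also higher than in CD8 T cells. The chemokine receptors Ccr8 (1.91, adjusted p = 0.0307), a marker of tumor regulatory T cells, and Ccr2 (3.02, adjusted p = 1.12e-05) were higher too. Without the long anti-MIF arm Klrg1, Itgae, Ebi3, Ccr8 and Ccr2 were no longer called. Ccr2 and Ebi3 were seen in 43.8% and 5.57% of Lyz2-rich cells after thinning, and Ccr2 was the most abundant gene of the macrophage and monocyte list in Foxp3-positive cells.

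Of 15 tested cytotoxic genes 11 were lower in Foxp3-positive than in CD8 T cells and 0 higher, beside 3.46% of all genes lower, with Klrd1 at least 66.7-fold higher in CD8 T cells. The granzymes Gzma (log2 fold change -3.46, adjusted p = 0.0780), Gzmc (-0.14, adjusted p = 0.978) and Gzmb and the chemokine Ccl3 (-0.84, adjusted p = 0.480) did not pass the test. Gzmb ran from 0 to 2659 CPM (median 835) in Foxp3-positive arms and from 548 to 2608 CPM (median 1304) in CD8 arms, with a log2 fold change of -0.18 (SE 0.584, adjusted p = 0.929). It was seen in 35 of 48 Foxp3-positive, 10 of 53 Foxp3-negative and 332 of 510 CD8 T cells. The difference between the CD4 classes did not pass the test (1.57, SE 0.579, adjusted p = 0.204). Areg and Gzmb were seen together in 17 Foxp3-positive, 0 Foxp3-negative and 18 CD8 T cells.

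Markers of other cell types were counted in the same sums. The macrophage and monocyte list reached 869 CPM in Foxp3-positive, 429 CPM in Foxp3-negative and 392 CPM in CD8 T cells. In Foxp3-positive cells 12 of its 15 genes had a UMI, 93 of 229 UMIs were Ccr2, and C1qa, Cd14 and Adgre1 were at 0. The list was highest in the 3 Foxp3-positive cells of the short anti-MIF arm (64 UMIs, 3964 CPM), an arm with too few cells to enter the fit. The B cell list reached 410, 67.2 and 18.0 CPM in the 3 classes. In Foxp3-positive cells 104 of its 108 UMIs were Ighm, the immunoglobulin mu chain, while Cd79a, Ms4a1 and Jchain were at 0. The dendritic list was mostly Bst2 in every class (353, 408 and 467 CPM), with Flt3, Xcr1, Fscn1 and Siglech at 0 in both CD4 classes. The NK list reached 34.2, 46.5 and 369 CPM, with Ncr1 and Klrb1c at 0 in both CD4 classes. Neutrophil markers gave 4, 1 and 73 UMIs and melanoma markers 3, 0 and 8 UMIs. Of the 73 neutrophil UMIs of CD8 T cells 65 came from the short anti–PD-1 arm. The CD8 T cells of that arm also reached 948 CPM on the dendritic list and 694 CPM on the macrophage and monocyte list. That arm also holds a Foxp3-positive sum of the fit. The part of these genes in the differences above was not tested.

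The cells within each class were not uniform. Among Foxp3-positive cells, the 10 with 1 Foxp3 UMI carried Ikzf2 in 10, Tnfrsf4 in 9 and Il2ra in 6, and none carried Cd40lg, Tcf7 or Tnfsf8. The 21 Foxp3-positive cells without a Cd4 UMI carried Ikzf2 in 20 and Il2ra in 14. Cells with the lowest Foxp3 counts or without Cd4 also held these markers. Of the 19 Foxp3-positive cells of the long anti-MIF arm 18 carried Gzmb, 14 Ccr2, 13 Itgae and 6 Areg, and of the other 29 cells 17, 13, 10 and 19. These are counts of cells from arms without replicates and were not tested.

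Among Foxp3-negative CD4 T cells, 8 carried both Il2ra and Ikzf2. All 8 had Tnfrsf4, 6 had Klrg1, 6 had Maf and 5 had Gzmb, and none had Cd40lg, Tcf7 or Tnfsf8. The other 45 cells carried Cd40lg in 24, Tcf7 in 15, Klrg1 in 1 and Klrd1 in 16. Those 8 cells, chosen for Il2ra and Ikzf2, thus carried some other genes of the Foxp3-positive class without a Foxp3 UMI. They had a median of 3322 UMIs per cell, against 3290 in the other 45. Foxp3-positive cells had more, with medians of 4019 in the long and 4492 in the short cohort. Whether Foxp3 RNA was missed in the 8 cells was not tested. Natural killer T cell and gamma delta T cell genes were nearly absent from CD4 T cells, with Zbtb16 or Klrb1c in 0 of 101 cells and Trdc or a Tcrg constant gene in 1.

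MIF itself and its receptors were compared because the treatment was directed at MIF. Mif, the cytokine, reached 554 CPM in Foxp3-positive, 496 CPM in Foxp3-negative and 703 CPM in CD8 T cells, and was lower in Foxp3-negative CD4 than in CD8 T cells (log2 fold change -0.95, SE 0.260, edgeR adjusted p = 0.0174). This call was made in 19 of 30 alternatives, and was lost among others in DESeq2, with library size alone in place of TMM, with thinned cells, in each cohort alone and without the long anti–PD-1 arm. Cd74, the surface receptor of MIF and the invariant chain of MHC class II, reached 516, 150 and 184 CPM and was higher in Foxp3-positive than in Foxp3-negative cells in 7 of 9 arms without passing the test (1.29, SE 0.580, adjusted p = 0.407). Cd74 was seen in 73.3% of Lyz2-rich cells after thinning, against 51.1%, 20.0% and 14.7% in the 3 T cell classes. Its coreceptors Cd44 and Cxcr4 and the homolog Ddt passed the test in none of the 3 comparisons.

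Treatment was compared over 7 sums of all CD4 T cells of an arm, with anti-MIF, anti–PD-1 and cohort as additive terms and 3 residual degrees of freedom. The long isotype arm had 3 CD4 T cells and was left out. No gene of 1042 was called for anti-MIF (0.0%, 38 at an unadjusted p under 0.05, DESeq2 0) or for anti–PD-1 (0.0%, 26 unadjusted, DESeq2 0) by edgeR at an adjusted p under 0.05. Il2ra had a log2 fold change of 0.34 (SE 0.713) with anti-MIF and -1.14 (SE 0.661) with anti–PD-1. Ikzf2 had -0.23 (SE 0.598) and -0.70 (SE 0.584), and Ctla4 -0.51 (SE 0.469) and -0.62 (SE 0.454). Each of these values was under 2 SE.

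These fits take all CD4 T cells of an arm, and the share of Foxp3-positive cells among them differed by arm, from 0 of 5 in the long combination arm to 19 of 26 in the long anti-MIF arm. Its part in these values was not tested. Mif in all CD4 T cells of an arm was 569, 524, 517 and 727 CPM in the long cohort (first 4 hashtags in order), while the short cohort had 661, 202, 933 and 499 CPM. The treated and untreated arms overlapped in both cohorts (anti-MIF log2 fold change 0.41, SE 0.441, adjusted p = 0.969). Cd74 was 253, 202, 797 and 132 CPM in the long and 220, 177, 213 and 131 CPM in the short cohort, highest in the long anti-MIF arm (anti-MIF log2 fold change 0.05, SE 0.528). Between the cohorts only Gm42418 was called (0.096% of genes, log2 fold change -1.19, SE 0.156, adjusted p = 0.0152), a locus whose reads are known to come largely from ribosomal RNA. No gene was called with the low-count filter first run, without cells holding Lyz2 or with thinned cells. The same held without the long anti–PD-1, short isotype or short anti-MIF arm. In edgeR 92 genes had an unadjusted p under 0.05, and DESeq2 called 4 genes. Since cohort, library and time coincide, their parts cannot be told apart.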

How the data were processed

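The authors deposited filtered matrices of whole-number UMI counts per gene and hashtag for 2 pooled libraries. The submitters' processing notes name Cell Ranger 7.1.0, Seurat 5.1.0, R 4.3.2 and DESeq2, with mm10. Positions are from GENCODE vM21 (GRCm38).

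Cells were kept with 200 to 5000 genes, at most 5% mitochondrial UMIs and a top hashtag at least 3 times the second. No doublet caller was run and free RNA was not subtracted, so doublets within an arm stay. The members and all lists were chosen with earlier results of these data known. UMIs were summed per arm and class (at least 5 cells) and tested in edgeR 4.0.16 (R 4.3.3; filterByExpr, TMM, quasi-likelihood, Benjamini-Hochberg, 0.05), with DESeq2 1.42.0 as an alternative. The 8 genes of the rule were not tested. For treatment, the low-count filter by design was chosen after a first fit with another filter had been seen. Named genes were those of the 22 lists and, per class comparison, the 10 called genes with the largest fold change in each direction and the same sign in every arm with both sums, V genes apart. Ifitm2, Gm42418, Adamts6 and the V genes lie outside that rule and were named after their values were seen. Shares used exact Clopper-Pearson intervals and sign-flip permutation in scipy 1.17.1. The scripts were tested on simulated data. Alternatives covered normalization, filters, hashtag ratio, thinning, cells per sum and each arm left out.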

Additional observations from a re-analysis of the deposited data

Results flagged for a closer look

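The class differences were compared between the long and the short cohort in an edgeR fit of class by cohort over 3010 genes. Between the CD4 classes this sets 1 Foxp3-positive sum against 1, anti-MIF in the long and anti–PD-1 in the short cohort. Cohort and arm cannot be told apart there and a lone sum has no spread of its own, so the values of the 2 genes it singled out are given with no test and are not read as a difference between cohorts. They were 13.4 on the log2 scale (long minus short) for Ccl4, a chemokine of activated T cells, and -10.6 for Adamts6, a secreted protease. Ccl4 had 17 and 1 UMIs in long and short Foxp3-positive cells and 32 and 20 in Foxp3-negative cells, in 4 cells of each class. Of the Foxp3-negative UMIs 31 of the 32 long ones came from the isotype arm, whose 2 cells were too few to enter the fit, and all 20 short ones from 1 cell of the isotype arm. Adamts6 had 4 and 14 UMIs in Foxp3-positive and 10 and 0 in Foxp3-negative cells.

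For Foxp3-negative CD4 against CD8 T cells 3 genes passed the edgeR quasi-likelihood test (Benjamini-Hochberg), with 145 at an unadjusted p under 0.05, and those of Ccl4 and Trbv14 rest on a handful of cells. The difference was lower in the long cohort for the heat shock gene Hspa1b (-2.46, SE 0.556) and for Ccl4 (-4.65, SE 1.07), and higher for the receptor gene Trbv14 (8.40, SE 1.98), each at an edgeR adjusted p of 0.0250. Trbv14 gave 9 and 1 UMIs in Foxp3-negative cells, 1 cell in each cohort, and 2 and 135 in CD8 T cells. For Ccl4 the pooled levels were 422 CPM long and 170 CPM short in Foxp3-negative cells and 2603 and 2304 CPM in CD8 T cells, so the pooled cells do not show the fitted direction. Both contrasts of Ccl4 use the same Foxp3-negative sums.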

How the results depend on the processing

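The class comparisons depended on a few arms. With only the 2 CD4 classes in the fit, 632 genes could be tested between them and 44 were called. Of the 53 genes called in the main fit of the CD4 classes, 35 could then be tested and 31 were called. Foxp3-positive against Foxp3-negative cells gave 53 genes, 28 in DESeq2, 25 with a hashtag ratio of 5, 0 with cells thinned to 2000 UMIs, 19 with at least 10 cells per sum, 32 and 17 in the long and short cohort alone, 105 with sums per cohort, and 22 to 60 with 1 arm left out. Without the long anti-MIF arm 22 were called, 11 of them among the 53. Foxp3-negative CD4 against CD8 T cells gave 218 genes, 484 with no filter on low counts, 63 with a hashtag ratio of 5, 14 thinned, 38 with at least 10 cells per sum, 67 in the short cohort alone, 116 with these classes alone in the fit, 117 with sums of 1 or more cells, 108 with sums per cohort, and 113 (without long anti–PD-1) to 250 with 1 arm left out. Foxp3-positive against CD8 T cells gave 189, 117 in DESeq2, 59 thinned, 406 with no arm block, 110 and 66 in each cohort alone, 358 with these classes alone, 338 with sums per cohort and 53 (without long anti-MIF) to 195 with 1 arm left out.

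In the treatment fits anti-MIF gave 1 gene with no filter on low counts and 0 to 4 with 1 arm left out. For anti–PD-1 there were 3 with no filter, 1 with sums of 1 or more cells and 0 to 2 with 1 arm left out. Long against short gave 4 in DESeq2, 10 with no filter, 2 with a hashtag ratio of 5, 3 with sums of 1 or more cells and 0 to 8 with 1 arm left out. It gave 0 without cells holding Lyz2, thinned, in Foxp3-negative cells alone, or with the low-count filter over all sums as 1 group. That last filter was the first one run (0 genes in all 3 treatment comparisons); the filter by design was chosen after its counts were seen, so the call of Gm42418 rests on that choice. Fits with at least 10 cells per sum could not be made for treatment.

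The difference in shares with anti-MIF changed sign. For CD4 T cells of kept cells it was -0.187 with a hashtag ratio of 5 and ran from -0.143 to 0.399 with 1 pair left out. Among T cells it ran from -4.87 to 9.96, Foxp3-positive cells of CD4 T cells from -3.06 to 18.5 (-18.1 with cells gated after thinning), and Foxp3-positive of kept cells from -0.0705 to 0.600.

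The 156 named gene results gave 4455 values over the alternatives, of which 3828 kept direction and call, 625 kept the direction alone and 2 changed sign, both Ccl3 in Foxp3-positive against Foxp3-negative cells (log2 fold change -3.21 without the long anti-MIF arm to 8.06 without the long anti–PD-1 arm, -0.998 in the short cohort alone and 9.69 with at least 10 cells per sum). The causes were not tested. The labels give no replicate numbers by which groups could be paired. The arm block of the class fits and the 4 pairs of arms come from the hashtags. Few cells per arm and 1 library per cohort limit all of these results.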

Other observations

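The T cell receptor V genes were counted by cell, with no test. In long Foxp3-positive cells Trbv13-2, Trbv13-3 and Trbv19 were each seen in 7 of 20 cells with a Trbv UMI (35%), and in short Foxp3-positive cells Trbv13-2 was seen in 6 of 18 (33.3%). In long Foxp3-negative cells 5 genes (Trbv2, Trbv12-2, Trbv13-1, Trbv13-2 and Trbv19) were tied at 3 of 18 cells, and in short Foxp3-negative cells Trbv13-2 was seen in 6 of 25. CD8 T cells were led by Trbv31 in the long (62 of 207, 30.0%) and Trbv14 in the short cohort (51 of 189, 27.0%). The mice of an arm cannot be told apart, and V genes share sequence.

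Another 90 T cells (17 long and 73 short) had no UMI of Cd4, Cd8a, Cd8b1 or Foxp3. Of the 73 short cells 50 came from the anti–PD-1 arm. Of the 90 cells 62 carried Nkg7, 49 Klrd1, 46 Ikzf2, 38 Cd28, 37 Tcf7, 14 Il2ra and 9 Cd40lg. Some of these genes are shared between the 3 classes, and to which class the cells belong was not tested.

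Interferon-induced genes were described as a list of 13 tested genes. Against CD8 T cells, where 2.82% of all genes were higher and 3.46% lower, Foxp3-positive cells had higher Igtp (log2 fold change 1.93, edgeR adjusted p = 0.000871), Iigp1 (3.62, adjusted p = 0.000886) and Ifi27l2a (1.20, adjusted p = 0.0132) and lower Ifit3, and Foxp3-negative cells had higher Ifi27l2a (0.84, adjusted p = 0.00785), beside 2.16% of all genes. Between the CD4 classes 0 of the 13 passed, beside 1.76% of all genes, while Ifitm1 and Ifitm2, interferon-induced genes outside this list, were lower in Foxp3-positive cells (edgeR adjusted p = 0.00880 and 0.000776).

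Of 82 ribosomal protein genes 35 were called lower in Foxp3-negative CD4 than in CD8 T cells (median log2 fold change -0.60), where 5.08% of all genes were called lower. The number depended on the scaling, with 17 in DESeq2 (median -0.47) and 3 with library size alone (median -0.31). In Foxp3-positive against CD8 T cells 5 of 82 were called lower (median -0.69), beside 3.46% of all genes, with 2 in DESeq2 and 3 with library size alone. Many of these genes have near-identical pseudogenes that can take up reads.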
